A study of Homo sapiens with 2 samples.

Results

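The 34 genes described here encode chaperones of the endoplasmic reticulum (ER) and the machinery of ER-associated degradation (ERAD). They were chosen by symbol, from a list, among the 33538 human genes counted in this series. They fall into 7 arms: BiP and its partners (8 genes), GRP94 and calumenin (2), disulfide isomerases (3), the translocon (3), stress sensors with XBP1 (3), the ERAD membrane complex with its lectins (10), and VCP-driven extraction with deglycosylation (5).

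Single cells of UMUC3, a human bladder carcinoma line, had been grown for 14 days in the bladders of C57 nude mice, which lack T cells, and were profiled with droplet-based 3' single-cell RNA sequencing. One library held cells labelled control and the other cells labelled as a GANAB knockdown. GANAB encodes the catalytic subunit of glucosidase II, which trims glucose from N-glycans in the ER. The labels used here do not say how the knockdown was made, what the control carries, how many mice were used, or whether cells came from 1 clone. With 1 library per group, library and group cannot be told apart. Samples could not be tested against each other, and the intervals below cover counting error only.

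Proteins that enter the ER are passed through the translocon and are folded by BiP, GRP94 and disulfide isomerases. Those that fail to fold are recognised by lectins, drawn back through a membrane ubiquitin ligase complex and extracted by the ATPase VCP for degradation. When unfolded proteins build up, the sensors IRE1 (gene ERN1), ATF6 and PERK raise transcription of many of these genes, partly through XBP1. This programme is called the unfolded protein response. Glucosidase II acts beside it, since glucose trimming lets glycoproteins enter and leave the calnexin and calreticulin folding cycle.

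Cells were barcodes with at least 15000 unique molecular identifiers (UMIs) and at most 20% mitochondrial UMIs. There were 4385 in the control library, with 214188781 UMIs and a median of 44046 per cell, and 2672 in the knockdown library, with 132709954 UMIs and a median of 40933. The cell sets had 4 barcodes in common. Levels are given as CPM, a gene's summed UMIs in a set of cells per 1000000 UMIs of that set. Of 10 UMUC3 markers, 9 reached 10 CPM in control and 10 in knockdown cells. Markers of other cell types were low: 7 fibroblast markers summed to 15.04 and 12.4 CPM, 7 macrophage markers to 26.99 and 25.2, and 5 neutrophil markers to 130 and 67.5, with 1 of them at 10 CPM or more. The 5 endothelial markers summed to 0.107 and 0.324 CPM, and T and NK cell, B and plasma cell and normal urothelium lists to at most 0.550. Of the T and NK cell markers 4 of 6 in control and 6 of 6 in knockdown cells were at 0, and of the fibroblast markers 2 of 7 in both. GANAB had 127 CPM in control cells and 42.3 in those of the knockdown, a log2 ratio of -1.58 (95% interval -1.62 to -1.54). G1 cells made up 51.4% of the control and 73.1% of the knockdown cells, so phase moved with the group.

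Promoters of several members carry short sequences known to bind the factors of the unfolded protein response, and these are shown because the genes that bear them differ in how closely they followed HSPA5 from cell to cell. The ER stress response element (ERSE) was searched as CCAAT, 9 bases of any kind, then CCACG. ERSE-II was searched as ATTGG, 1 base, then CCACG. Both strands were searched, in RefSeq windows of 300 bases that run from 250 bases before to 50 bases after a transcription start (GRCh38.p14). Windows were found for 31 of the 34 members. ERSE occurred in 5 of these 31 genes (5 of their 36 windows) and in 0.0769% of all 35116 windows. ERSE-II occurred in 3 of 31 genes (3 of 36 windows) and 0.0541% of all windows. Another motif, the core TGACGTGG of the element that XBP1 binds, lay in the windows of HYOU1, UBE2J1 and VCP and in 0.729% of all windows. In HYOU1 it overlaps an ERSE-II match. The CCAAT box by itself, part of both stress elements, occurred in 25 of the 31 genes (26 of 36 windows) and in 34.6% of all windows. A match describes letters in a window, not binding.

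The 200 bases before the RefSeq start of HSPA5 (minus strand, chr9:125241344-125241543) hold 1 exact ERSE match, in capitals, 66 to 48 bases before the start. The other lines give matches with 10 bases on each side, all 5′ to 3′ on the gene's own strand, with the match in capitals. In SDF2L1, CRELD2 and HYOU1 the match reads on the opposite strand.
HSPA5, ERSE: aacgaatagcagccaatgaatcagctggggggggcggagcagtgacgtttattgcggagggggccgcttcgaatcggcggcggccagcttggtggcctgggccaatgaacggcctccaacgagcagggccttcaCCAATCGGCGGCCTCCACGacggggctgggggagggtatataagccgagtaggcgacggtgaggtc
XBP1, ERSE, chr22:28800593-28800631, minus strand: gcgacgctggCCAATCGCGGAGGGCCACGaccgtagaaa
HSP90B1, ERSE (the first of 2), chr12:103930206-103930244, plus strand: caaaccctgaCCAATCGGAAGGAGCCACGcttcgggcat
PDIA6, ERSE, chr2:10812843-10812881, minus strand: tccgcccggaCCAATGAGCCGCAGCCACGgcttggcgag
CRELD2, ERSE, chr22:49918544-49918582, plus strand: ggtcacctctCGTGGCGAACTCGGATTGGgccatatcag
HERPUD1, ERSE-II, chr16:56932015-56932045, plus strand: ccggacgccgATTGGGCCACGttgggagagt
SDF2L1, ERSE-II, chr22:21642104-21642134, plus strand: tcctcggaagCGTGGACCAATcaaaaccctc
HYOU1, ERSE-II (the second of 2), chr11:119057264-119057294, minus strand: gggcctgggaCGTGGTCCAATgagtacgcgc

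In the knockdown library, transcripts of BiP, of the BiP partner MANF, of the ERAD scaffold HERPUD1, of 2 disulfide isomerases and of VCP were lower than in the control library, and no member was higher by the same rule. A gene was called lower or higher where the ratio was 1.5 or more and its interval left out 1, among genes of 10 CPM or more in either library. Of the 34 members 31 passed that level. ERN1 (7.51 CPM in control, 8.16 in knockdown) and SYVN1 (7.92 and 8.18), the ubiquitin ligase HRD1, did not. DERL3 had 0 UMIs in both libraries, which allows up to 0.0140 CPM in control and 0.0226 in knockdown cells. By this rule 7 of the 31 were lower, beside 10.4% of the 7872 genes measured, and 0 were higher, beside 7.69%. The median log2 ratio of the 31 was -0.40, against -0.07 for all measured genes.

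**Figure D1:**
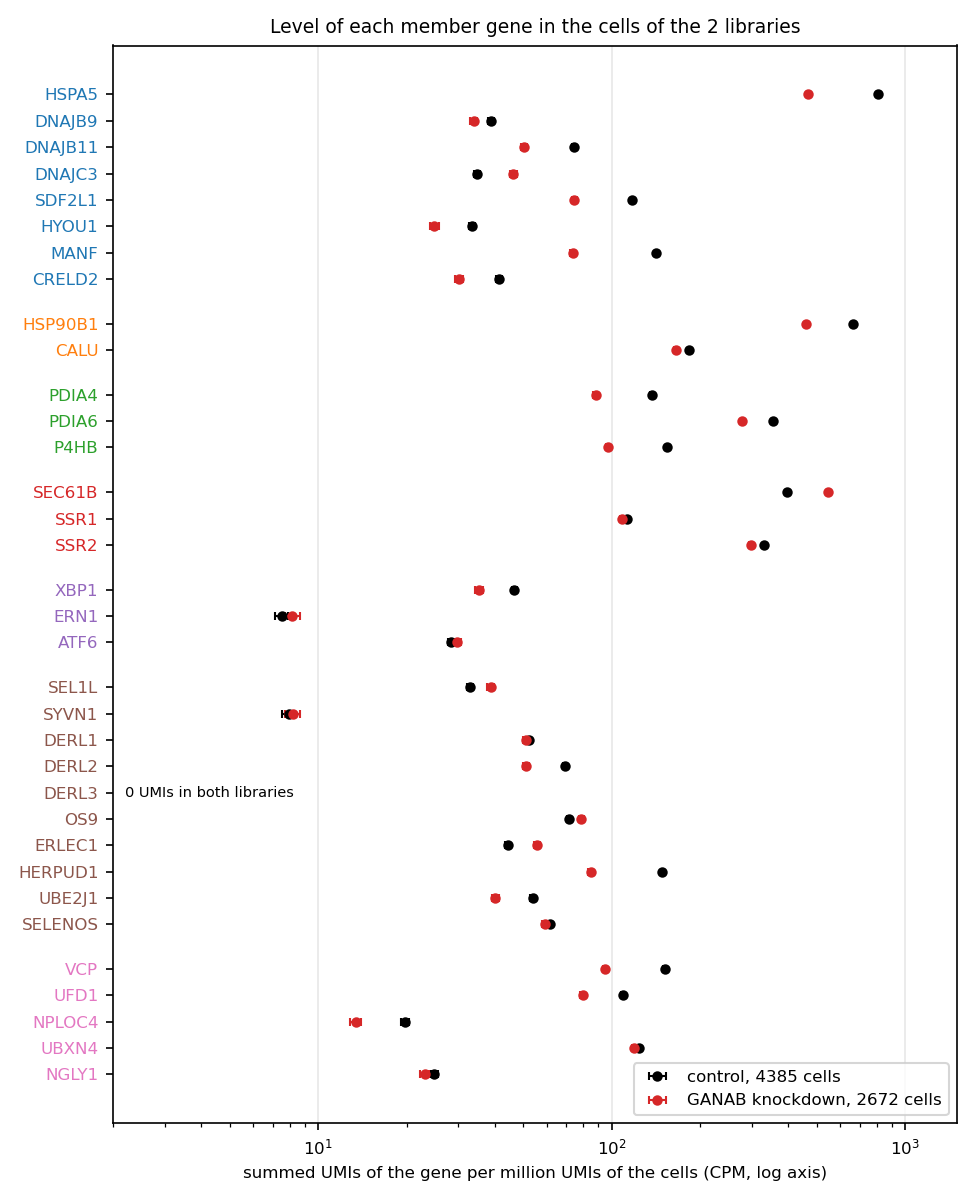
Level of each member as CPM (log axis) in the cells of the control library (black) and of the GANAB knockdown library (red), 1 library each. Bars are 95% Poisson intervals, mostly hidden by the points, and label colours mark the 7 arms. HSPA5 and HSP90B1 lie to the left in the knockdown library, and SEC61B lies to the right.

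HSPA5, which encodes the central ER chaperone BiP, was the most abundant member in control cells (806 CPM) and had 466 CPM in the knockdown, a log2 ratio of -0.79 (-0.81 to -0.78). MANF, a secreted ER protein that binds BiP and protects cells under stress, stood at 142 and 73.7 CPM, a log2 ratio of -0.94 (-0.98 to -0.91), the lowest of the members. SDF2L1, a cofactor of BiP's J-domain partners, stood at 117 and 74.6 (-0.66). These 3 of the 8 genes of the BiP arm met the rule.

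The remaining BiP partners missed the ratio. DNAJB11 (ERdj3), the soluble J-domain cofactor, stood at 74.2 and 50.4 CPM (-0.56). CRELD2 stood at 41.2 and 30.2 (-0.45), and HYOU1, a nucleotide exchange factor for BiP, at 33.5 and 24.8 (-0.43). DNAJB9 (ERdj4), which restrains IRE1 through BiP, stood at 38.8 and 33.8 (-0.20). DNAJC3 (p58IPK) lay the other way, at 34.8 and 46.2 CPM (0.41). The arm therefore did not move as 1 block between the libraries.

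GRP94 (gene HSP90B1), the ER member of the HSP90 family, had 664 CPM in control and 460.0 in knockdown cells, a log2 ratio of -0.53 (-0.54 to -0.52). CALU, encoding the calcium-binding protein calumenin, differed less, at 183 and 166 (-0.14). Among the disulfide isomerases, P4HB (protein disulfide isomerase itself) stood at 155 and 96.9 CPM (-0.67) and PDIA4 at 137 and 88.2 (-0.63). PDIA6 missed the ratio, at 355 and 278 (-0.35). All 3 isomerases lay below 0 on the log2 scale.

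The translocon genes differed from the chaperones. SEC61B, a subunit of the protein-conducting channel, had 394 CPM in control and 546 in knockdown cells, a log2 ratio of 0.47 (0.46 to 0.48), the highest of the members but below the ratio of 1.5. SSR1 and SSR2, subunits of the translocon-associated protein complex, stood at 112 and 108 CPM (-0.05) and at 329.9 and 297 CPM (-0.15). Of the sensors, ATF6 stood at 28.4 and 29.7 CPM (0.06). XBP1 stood at 46.5 and 35.3 CPM (-0.40). These are counts of the gene, in which the spliced and unspliced forms of XBP1 are not separated.

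HERPUD1 was the member of the ERAD membrane arm that met the rule. It encodes a membrane protein that organises the HRD1 complex, and had 148 CPM in control and 84.8 in knockdown cells, a log2 ratio of -0.81 (-0.84 to -0.78). DERL2 and UBE2J1, a derlin and the ubiquitin-conjugating enzyme of the complex, missed the ratio at -0.44 and -0.43. ERLEC1 and OS9, the lectins that read trimmed glycans, had log2 ratios of 0.34 and 0.14, and SEL1L, the adaptor of HRD1, of 0.24. DERL1 and SELENOS, both at 51.2 to 61.5 CPM in the 2 libraries, had ratios of -0.02 and -0.06. Ratios within this arm thus ran from -0.81 to 0.34, with a median of -0.04.

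VCP, the ATPase that pulls ubiquitinated proteins out of the membrane, had 151 CPM in control and 94.9 in knockdown cells, a log2 ratio of -0.67 (-0.70 to -0.64). Its cofactors UFD1 (109 and 79.6 CPM) and NPLOC4 (19.7 and 13.4) had log2 ratios of -0.45 and -0.56. UBXN4, which anchors VCP at the ER, and NGLY1, the cytosolic glycan-removing enzyme, had ratios of -0.06 and -0.11. All 5 genes of this arm had intervals below 0, and 1 met the rule.

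The counts differed by phase. Among G1 cells alone 3 members were lower, HSPA5 (-0.90), HERPUD1 (-0.97) and MANF (-0.93), while the log2 ratios of SDF2L1, P4HB, VCP and PDIA4 lay between -0.57 and -0.53, just short of the rule. Of all genes measured in G1 cells 9.87% were lower, close to the members' share. In cells scored as S or G2M 5 were lower, MANF (-0.73), VCP (-0.71), PDIA4 (-0.67), P4HB (-0.66) and HERPUD1 (-0.59). SEC61B met the rule as higher there (0.59), and HSPA5, at -0.56, missed it. Of all genes in these cells 8.77% were lower and 5.40% higher. Within both libraries MANF was higher outside G1, at 109 CPM in G1, 162 in S and 169.7 in G2M control cells, and at 57.3, 101 and 98.8 CPM in knockdown cells. OS9 lay the other way, at 89.0, 59.9 and 58.2 CPM in control and at 94.8, 55.4 and 50.8 in knockdown cells. SEL1L, too, was higher in G1 than in S, at 40.0 against 27.3 CPM in control and 48.3 against 22.4 in knockdown cells. HSPA5 also moved with depth, from 561 CPM in the 1096 control cells with the fewest UMIs to 922 in the 1097 with the most, and from 351 to 561 between such sets of 668 knockdown cells. The part of phase and depth in the difference between the libraries was not tested.

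The other genes of these pathways, from lists set beside the members, showed few differences by the rule. Of 25 measured ER folding factors 1 was lower, CALR (530.1 to 284 CPM), the lectin chaperone calreticulin, and 2 were higher, SIL1 (35.3 to 63.2) and SDF2 (43.6 to 67.2). Their median log2 ratio was 0.06. Of 24 other translocon and signal peptide genes 2 were lower, SSR3 (320.2 to 196) and SEC11C (132 to 76.1). Of 30 other ERAD genes 0 were lower and 1, FAM8A1, a cofactor of HRD1, was higher at 8.80 and 13.7 CPM. FAM8A1 passed the level of 10 CPM only through the knockdown library, where it was higher. Of 18 regulators of the unfolded protein response 1 was lower, DNAJB12 (27.2 to 15.9), and 0 were higher. The medians of these last 3 lists were -0.07, -0.00 and -0.01.

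Lists from outside the ER give the setting. Cholesterol synthesis genes were lower in 19 of 20 measured (median -1.03) and S phase genes in 16 of 36 (-0.53). Of 52 G2 and M phase genes 9 were lower and 1 was higher (-0.42). Of 21 cytosolic chaperones 5 were lower (-0.42), and of 20 ribosomal protein genes 2 (-0.16).

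TMEM132D-AS1 is a long non-coding RNA gene on chromosome 12 (129109629 to 129113294, plus strand, GENCODE release 29) that marks a subset of cells in both libraries. At least 2 of its UMIs were found in 241 control cells, 5.50% of the cells, and in 1942 knockdown cells, 72.7%. Its name marks it as antisense to TMEM132D, and the sources used here do not state whether counting used strand, so reads of the pair cannot be told apart. Control cells with the transcript had a median of 51552 UMIs, against 43760 in the other control cells. The comparison of libraries was also made within these marked cells. In the remaining cells, with fewer than 2 UMIs, 4 members were lower (MANF -0.86, P4HB -0.65, PDIA4 -0.64 and VCP -0.60), beside 8.57% of all genes, while HSPA5 (-0.46) and HERPUD1 (-0.39) missed the rule.

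Within the marked cells most of the differences between the libraries were smaller, while that of HSPA5 was nearly as large. HSPA5 had 711 CPM in marked control cells and 421 in marked knockdown cells, a log2 ratio of -0.76 (-0.79 to -0.72). MANF stood at 108 and 71.6 CPM (-0.60, -0.68 to -0.52). UBE2J1 stood at 61.7 and 40.3 CPM (-0.61, -0.72 to -0.50). These 3 of 31 members were lower, beside 4.59% of 7720 genes, and 0 were higher, beside 3.58%. The members' median log2 ratio was -0.14, against -0.09 for all measured genes, so as a group they lay close to the rest. With the median of all genes set to 0, HSPA5 alone met the rule (-0.67), beside 3.20% of all genes that were lower. As a share of the members this count lies near that of all genes. Among marked cells in G1, HSPA5 (-0.87) and UBE2J1 (-0.64) met it and MANF (-0.47) did not, beside 3.69% of genes that were lower.

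For the genes that met the rule over all cells but not here, the values within marked cells were 94.3 and 73.6 CPM for HERPUD1 (-0.36), 120.1 and 95.8 for P4HB (-0.33), 101 and 87.8 for PDIA4 (-0.21), 118 and 92.5 for VCP (-0.35), and 95.1 and 71.2 for SDF2L1 (-0.42). ERLEC1 and SEL1L lay above 0, at 0.37 (0.25 to 0.50) and 0.28 (0.14 to 0.43). DNAJB9, at 29.2 and 33.2 CPM, had a ratio of 0.19 (0.04 to 0.34), on the other side of 0 from its value over all cells. GANAB stood at 130.3 and 38.1 CPM in the same cells. This comparison shares its cells with the one over all cells, so the values stand side by side and one does not support the other.

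Inside the control library, where both sets of cells carry the control label, the marked cells had less HERPUD1 than the others. It stood at 94.3 CPM in the 241 marked cells and 152 in the other 4144, a log2 ratio of -0.69 (-0.77 to -0.61). It was the 1 member of 31 that was lower, beside 4.41% of 7747 genes, and 0 were higher, beside 4.58%. The count of members called thus did not exceed the share of all genes. XBP1 (35.3 against 47.2 CPM) and DNAJB9 (29.2 against 39.5) had ratios of -0.42 and -0.44. HSPA5 differed little, at 711 against 813 CPM (-0.19), and GANAB stood at 130.3 against 126. The 31 members had a median of -0.21, against -0.01 for all genes. Markers of other cells differed as well, with neutrophil markers at 61.9 CPM in marked and 134 in other control cells. Of these markers 3 of 5 against 1 of 5 were at 0, a count that also depends on the number of cells. Fibroblast markers summed to 26.04 and 14.3 CPM and macrophage markers to 41.9 and 25.97 in the same cells. In both sets only 1 of 5 neutrophil and 1 of 7 macrophage markers reached 10 CPM. The part of these markers in the result was not tested. With marked cells taken at 1 UMI or more, no member met the rule, beside 3.44% of genes that were lower and 3.94% that were higher.

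Inside the knockdown library HERPUD1 was again the 1 member that met the rule. It stood at 73.6 CPM in the 1942 marked cells and 116 in the other 730, a log2 ratio of -0.66 (-0.72 to -0.61), beside 0.514% of 7593 genes that were lower. No member was higher, beside 0.29% of genes. HSPA5 stood at 421 against 590 CPM (-0.49, -0.51 to -0.46) and lay in the lowest 1.08% of genes without meeting the rule. The other BiP partners ran from -0.24 (SDF2L1) to -0.06 (CRELD2), and the 3 isomerases from -0.10 to -0.02. GANAB itself differed between these cells, at 38.1 against 54.0 CPM. Neutrophil markers summed to 26.6 CPM in marked and 182 in other knockdown cells (1 of 5 and 2 of 5 at 0). Fibroblast markers summed to 13.7 and 8.97, and macrophage markers to 25.3 and 24.99. Here too only 1 of 5 neutrophil and 1 of 7 macrophage markers reached 10 CPM in both sets. The part of these markers in the result was not tested.

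**Figure D2:**
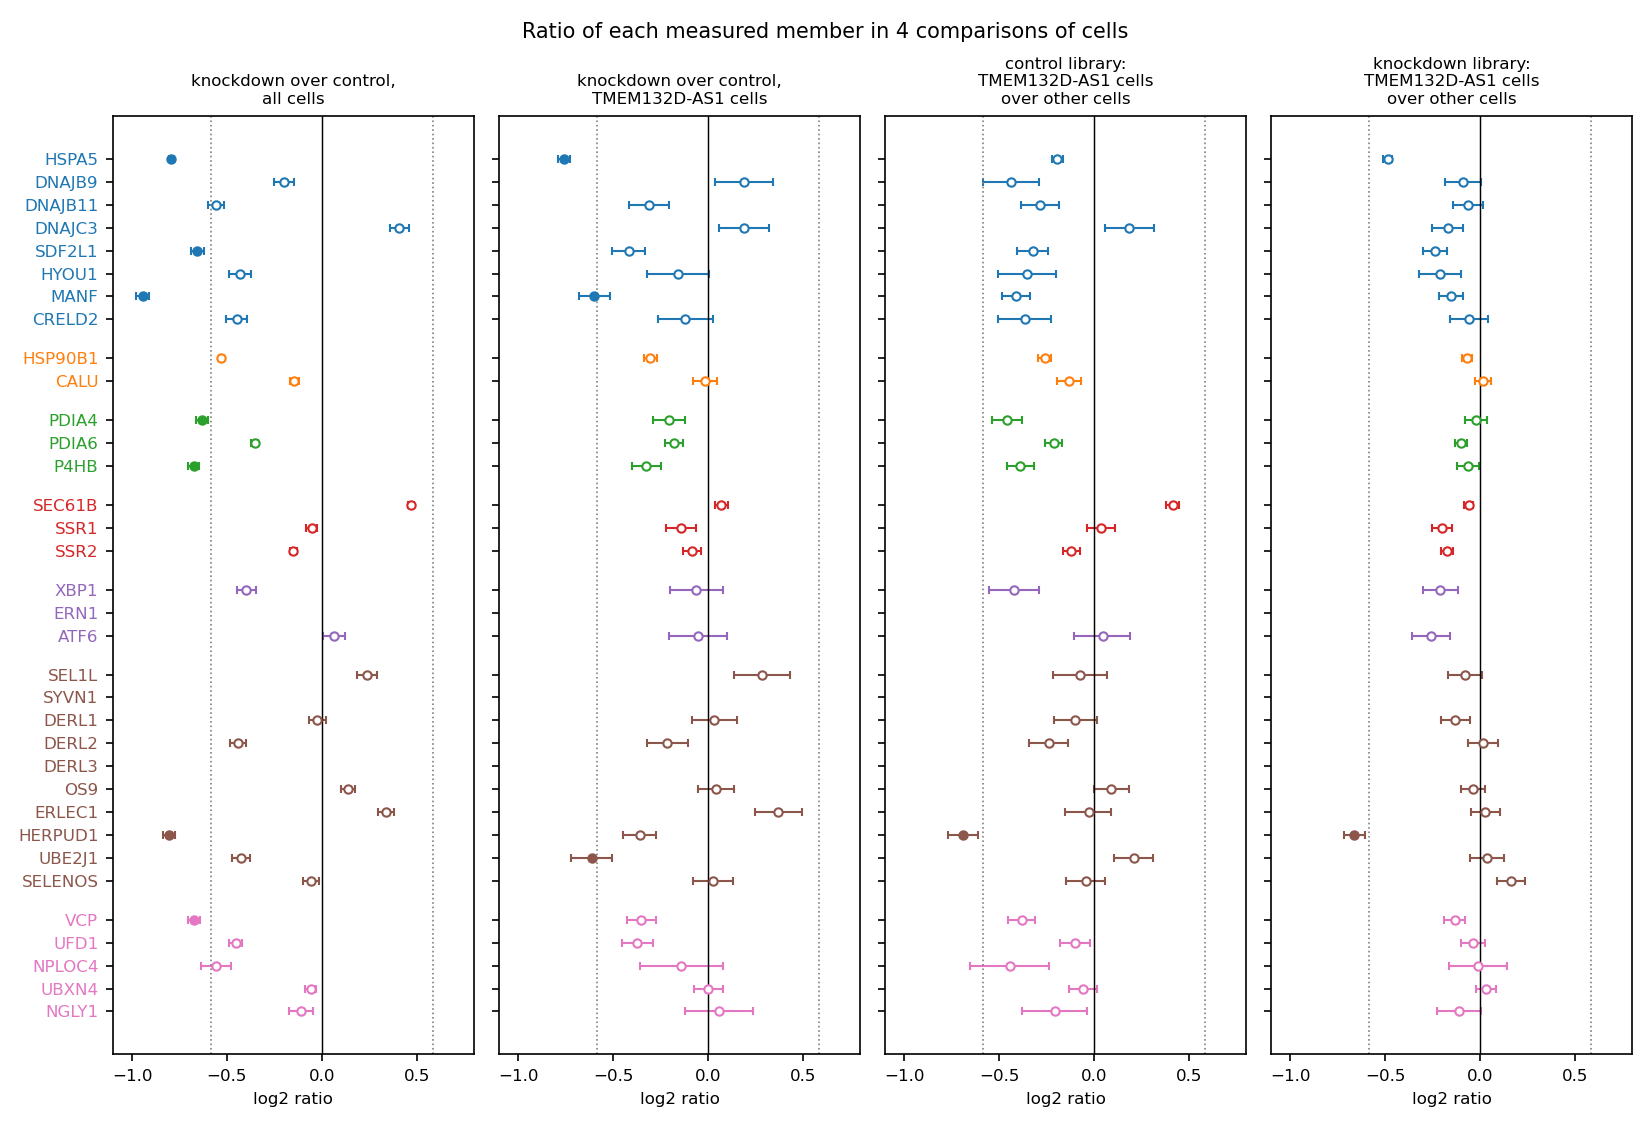
Log2 ratio of each measured member in 4 comparisons of cells, with 95% counting intervals as bars and dotted lines at a ratio of 1.5 in either direction. Filled points met the rule, and colours mark the arms. HERPUD1 is the filled point in both comparisons within a library (-0.69 and -0.66), and HSPA5 is filled in both comparisons between libraries (-0.79 and -0.76).

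Each member was also set beside its chromosomal neighbours. SEC61B, on chromosome 9 (99222064 to 99230615), had a log2 ratio of 0.47 between the libraries, and the measured genes within 10 Mb of it had a median of 0.36. In marked against other control cells the values were 0.41 and 0.44, and between the libraries within marked cells 0.07 and -0.03. SEC61B thus lay close to its neighbourhood in each comparison. VCP, on the same chromosome (35056064 to 35073249), had ratios of -0.67 between libraries and -0.38 in marked against other control cells, beside neighbours at -0.50 and -0.40. Between the libraries within marked cells VCP was at -0.35 and its neighbours at -0.11.

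HSPA5 lay apart from its neighbours. It sits on chromosome 9 (125234853 to 125241330), where genes within 10 Mb had a median of 0.20 between the libraries, against its own -0.79. SELENOS on chromosome 15 (101270817 to 101277500) had -0.06 beside neighbours at 0.33. HERPUD1 on chromosome 16 (56932048 to 56944863) had -0.81 beside -0.29, and MANF on chromosome 3 (51385047 to 51389397) -0.94 beside -0.28. Copy number was not tested.

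**Figure D3:**
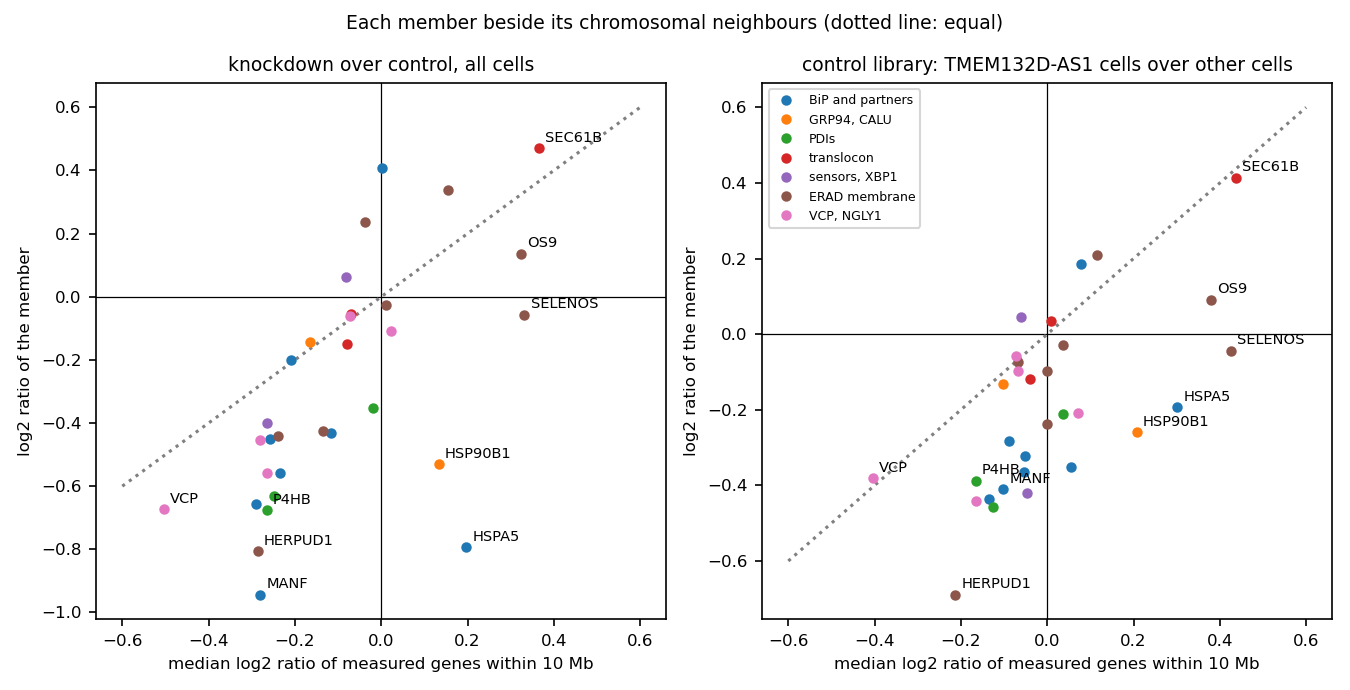
Log2 ratio of each measured member (vertical axis) against the median log2 ratio of measured genes within 10 Mb (horizontal axis), between the libraries over all cells (left) and in marked against other control cells (right), coloured by arm. SEC61B and VCP lie near the dotted line of equality in the right panel, and HSPA5 lies well below it in the left (-0.79 at 0.20).

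HSPA5 had at least 1 UMI in 99.4% of control and 99.0% of knockdown cells, and varied widely between cells of the same library. In control cells the 10th percentile, median and 90th percentile were 124, 439 and 1818 CPM, and in knockdown cells 89.1, 258 and 922. The median cell therefore lay well under the summed level. HERPUD1 had a UMI in 80.1% and 76.3% of cells and was more uneven, with a median of 54.6 and a 90th percentile of 367 CPM in control cells and 41.3 and 176 in knockdown cells. Barcodes of 10 to 100 UMIs, which reflect free RNA, held HSPA5 at 852 CPM (control) and 508 CPM (knockdown), close to the levels in cells, and HERPUD1 at 153 and 74.1. The part of free RNA in the values of cells was not tested.

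To see which members moved with BiP, cells were thinned to 15000 UMIs, ordered by HSPA5 and split into 4 bins of nearly equal size, within each library. From the lowest to the highest bin of control cells HSPA5 ran, by construction, from 113 to 1903 CPM. HERPUD1 rose with it from 33.1 to 378 CPM, 11.4-fold (log2 interval 3.39 to 3.64). DNAJB9 rose from 18.0 to 77.9 (4.33-fold), XBP1 from 24.5 to 79.7 (3.25-fold) and SDF2L1 from 69.6 to 179 (2.57-fold). DNAJB11, MANF and HSP90B1 rose by less, 1.79-, 1.57- and 1.52-fold. These 7 of the 30 other measured members were higher by the rule, beside 3.71% of 7637 genes, and 0 were lower, beside 0.55%.

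The same group of genes led in the knockdown library at smaller folds. HSPA5 ran from 70.4 to 1049 CPM, and HERPUD1 rose from 36.3 to 177 (4.88-fold), DNAJB9 from 21.7 to 53.4 (2.47-fold), XBP1 from 22.5 to 51.7 (2.30-fold) and SDF2L1 from 56.6 to 98.4 (1.74-fold). ERN1, at 6.59 and 11.4 CPM, HSP90B1 and MANF rose 1.73-, 1.55- and 1.52-fold. DNAJB11, which met the rule in control cells, missed it here (1.44-fold). ERN1 reached 10 CPM only in the highest bin, so it was counted as measured only because it rose. In control cells, at 6.26 and 9.25 CPM, it was not measured. In all 7 of 31 were higher, ERN1 included in both numbers, beside 6.17% of 7644 genes, and 0 were lower, beside 1.56%. Neither the difference in fold between the libraries nor the part of depth was tested. The bins also differed in median UMIs, from 37962 to 50117 in control and 36226 to 47392 in knockdown cells, and in the share of G1 cells, from 60.9% to 46.1% and from 80.2% to 62.0%.

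Most members varied little across these bins. In the highest against the lowest bin 21 of 30 members in control and 20 of 31 in knockdown cells had a ratio at most 25% above 1 in either direction. The share of all genes within this limit was not counted, so these numbers do not set the members apart from other genes. The members' median log2 ratio was 0.14, against 0.06 for all measured genes, in both libraries. The translocon as a sum stood at 845 and 816 CPM in control, and VCP at 134 and 148. SEL1L stood at 33.1 and 33.4 CPM in control and at 44.7 and 35.6 in knockdown cells. OS9 lay the other way from BiP, at 80.6 and 69.8 in control and at 101 and 73.7 in knockdown cells. GANAB did not follow HSPA5 in either library, at 125 and 121 CPM in control and 40.6 and 41.4 in knockdown cells.

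Of the 7 members other than HSPA5 that hold ERSE or ERSE-II in their windows, 4 rose in the control bins (XBP1, HERPUD1, SDF2L1 and HSP90B1) and 3 missed the rule, CRELD2 (1.15-fold), PDIA6 (1.22-fold) and HYOU1 (1.38-fold). The other 3 that rose, DNAJB9, DNAJB11 and MANF, had no match to either element in their windows.

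**Figure D4:**
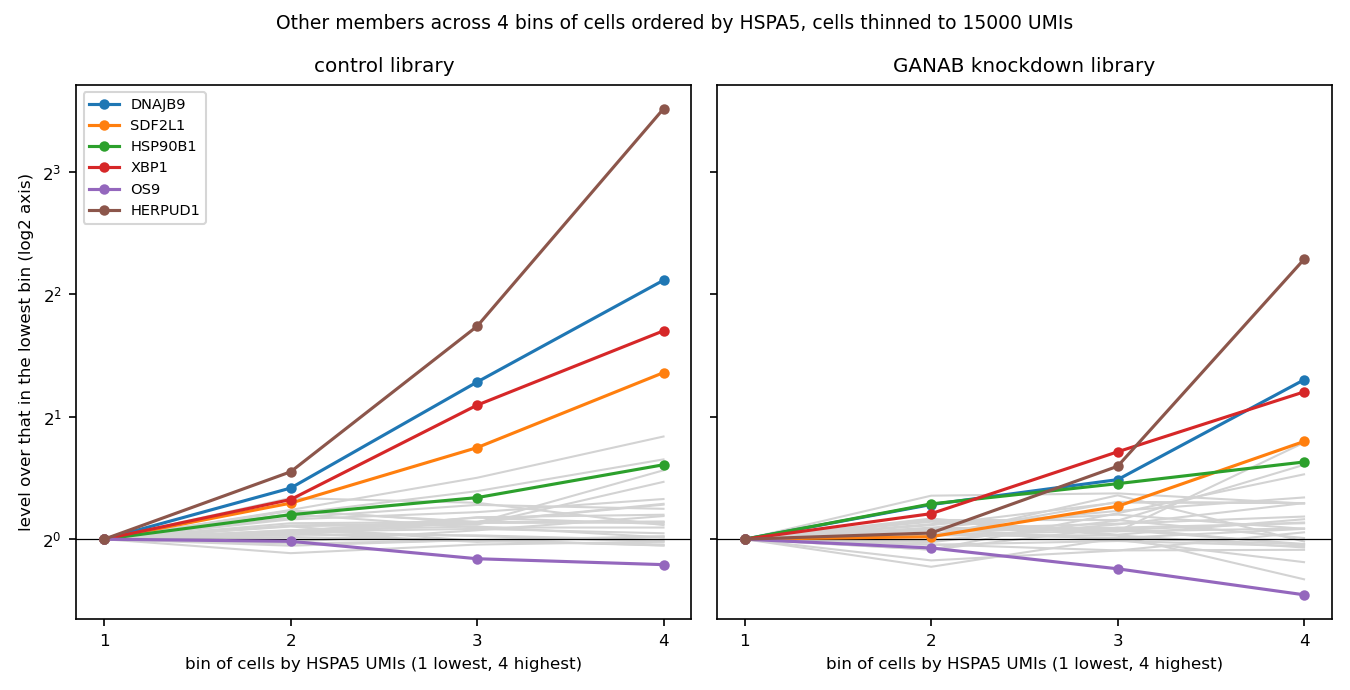
Level of each other member in bins of cells ordered by HSPA5, over its level in the lowest bin (log2 axis), in the control (left) and knockdown (right) library, from cells thinned to 15000 UMIs. Named genes are coloured and the rest are grey. HERPUD1 reaches 11.4-fold in control and 4.88-fold in knockdown cells, and OS9 falls below 1 in both.

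Among all genes with at least 50 CPM, HERPUD1 had the highest correlation with HSPA5 across cells in both libraries. On the scale of log2(thinned UMIs + 1) Pearson's r was 0.60 over 4385 control cells, the first of 2428 genes, and 0.45 over 2672 knockdown cells, the first of 2386. Others high in control cells were DDIT3 (0.54), which encodes the stress factor CHOP, then the sterol-pathway gene HMGCS1 (0.54), KLF6 (0.48), MSMO1 (0.47), JUN (0.41), INSIG1 (0.39), NFKBIA (0.38), BAG3 (0.36), EGR1 (0.35) and JUND (0.34). In knockdown cells they were NFKBIA (0.41), HMGCS1 (0.41), DDIT3 (0.39), NR4A1 (0.38), KLF6 (0.36), HSP90AA1 (0.35), CYR61 (0.35), BIRC3 (0.34), DNAJB1 (0.33), JUN (0.32) and DUSP1 (0.32). Members under 50 CPM, XBP1 and DNAJB9 among them, were not ranked. SDF2L1 ranked 14 and HSP90B1 31 in control cells, and 62 and 39 in knockdown cells. P4HB, VCP, CALU and SSR2 had correlations of 0.06, 0.04, 0.00 and -0.02 in control cells, too weak to read.

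In marked cells HERPUD1 was again among the genes most like HSPA5. It ranked first with HSPA5 over the 241 marked control cells (0.55) and ranked 3 over the 1942 marked knockdown cells (0.37), after NFKBIA (0.40) and DDIT3 (0.37). Across bins of marked control cells, of 60 or 61 cells each, HERPUD1 stood at 32.8, 30.0, 67.8 and 238 CPM and XBP1 at 21.9, 25.6, 32.2 and 73.3. In bins of marked knockdown cells HERPUD1 stood at 37.2, 38.2, 52.7 and 133 CPM. The step to the highest bin was the largest in each series.

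The arms were then correlated as sums. In these correlations BiP stands for the whole arm of BiP and its partners, and GRP94 for GRP94 with calumenin. HSPA5 alone gave 11.3 of the BiP arm's mean of 18.3 thinned UMIs in control and 6.26 of 11.1 in knockdown cells. Values of that arm without HSPA5 are not given here. The correlation net of counting noise divides the covariance of 2 arms by the root of the product of their variances above the Poisson level, in cells thinned to 15000 UMIs. Spearman's rho, not corrected for noise, is given beside it. All cells of a library share that library, and no value carries a test. Over the 21 pairs of arms the median net correlation was 0.256 in control (median rho 0.102) and 0.289 in knockdown cells (median rho 0.140).

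In control cells the highest values joined BiP to the ERAD membrane arm (0.73, rho 0.42) and GRP94 with calumenin to the disulfide isomerases (0.73, rho 0.42). BiP and its partners also varied with the sensors and XBP1 (0.61, rho 0.27). The first of these links rested on 1 gene. Without HERPUD1 the net correlation of BiP and its partners with the remaining 9 ERAD genes was 0.17 (rho 0.05), and it was 0.61 (rho 0.33) with XBP1 by itself. GRP94 and the isomerases varied with the VCP arm (0.59 and 0.61, rho 0.28 and 0.23), whereas BiP and its partners had a value of 0.14 with it (rho 0.09). BiP and its partners gave 0.39 with GRP94 and calumenin (rho 0.29) and 0.31 with the isomerases (rho 0.24).

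Values in the knockdown library stood as follows. GRP94 with the isomerases gave 0.69 (rho 0.35), GRP94 with the VCP arm 0.59 (rho 0.27), and the isomerases with the VCP arm 0.47 (rho 0.15). The ERAD membrane arm gave 0.43 with GRP94 (rho 0.23), 0.40 with the isomerases (rho 0.15) and 0.40 with the VCP arm (rho 0.14). BiP with the ERAD membrane arm gave 0.52 (rho 0.17), and without HERPUD1 -0.06 (rho -0.04). BiP with the sensors and XBP1 gave 0.37 (rho 0.16). With cholesterol synthesis genes BiP and its partners gave 0.59 in control and 0.58 in knockdown cells (rho 0.55 and 0.40). The translocon had its values between -0.14 and 0.17 with the other arms in control (rho -0.04 to 0.05). In knockdown cells they lay between -0.15 and 0.21 (rho -0.08 to 0.09). No difference between libraries in these values was tested.

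**Figure D5:**
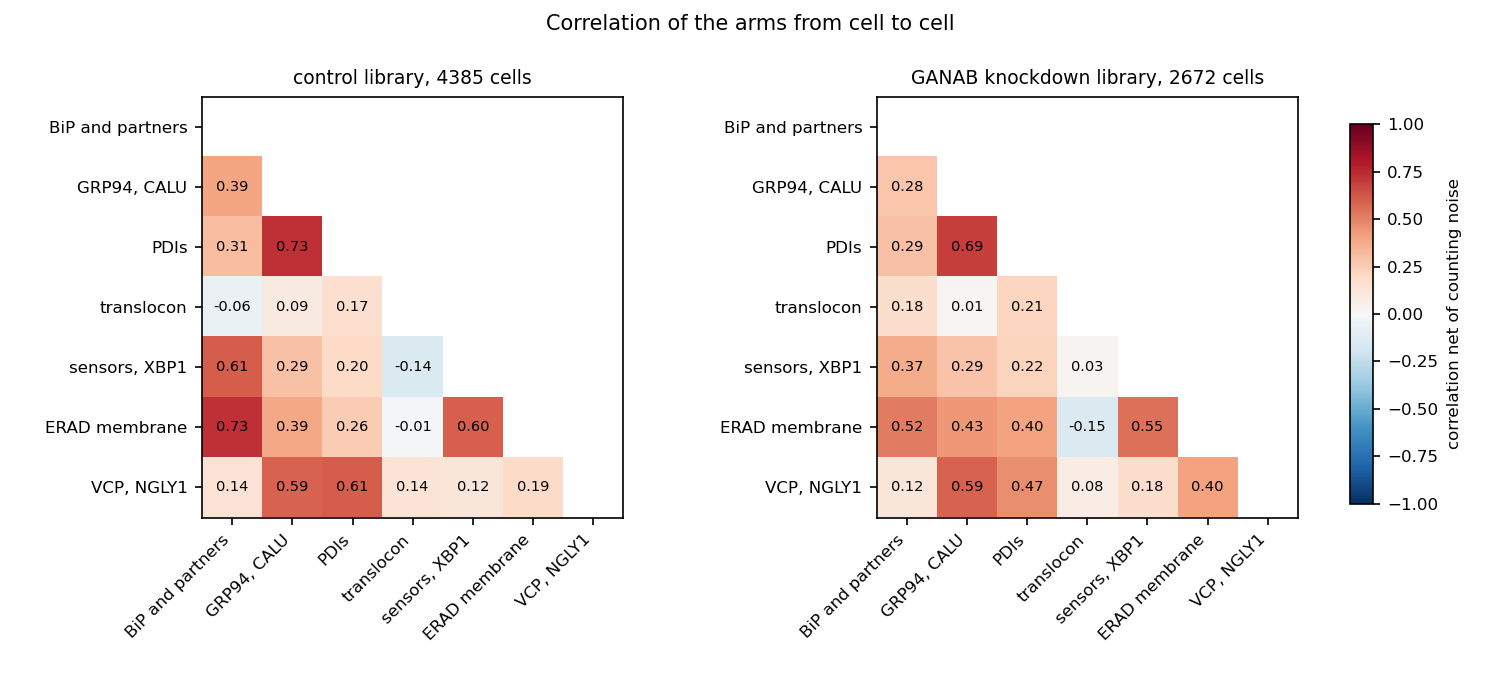
Correlation of the summed arms from cell to cell, net of counting noise, in control (left) and GANAB knockdown (right) cells thinned to 15000 UMIs. Colour runs from -1 (blue) to 1 (red). BiP with the ERAD membrane arm and GRP94 with the disulfide isomerases are both at 0.73 in control, and the translocon row and column are pale.

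Within marked cells the values were as follows. Over 1942 marked knockdown cells GRP94 with the isomerases gave 0.71 (rho 0.35) and GRP94 with the VCP arm 0.58 (rho 0.27). BiP with the ERAD membrane arm gave 0.33 (rho 0.13) in these cells. Over 241 marked control cells BiP with the ERAD membrane arm gave 0.86 net, beside a rho of 0.20, and without HERPUD1 0.54, beside a rho of -0.12. BiP with GRP94 gave 0.50 there (rho 0.31). GRP94 with the isomerases gave 0.28 (rho 0.10), GRP94 with the VCP arm 0.27 (rho 0.10), and the isomerases with the VCP arm 0.15 (rho 0.03). The translocon could not be given net of noise in these 241 cells, since its variance did not exceed the Poisson level.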

How the data were processed

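UMI counts per gene and barcode had been deposited by the authors for 2 libraries, made with Cell Ranger 3.1.0 on GRCh38 per the submitters' processing notes. The sources used here state neither the strand setting nor a mouse reference. Cells had gone through Chromium Single Cell 3' v3 chemistry, with 10000 loaded per channel, per the labels' protocols. From these deposited counts, barcodes with at least 15000 UMIs and at most 20% mitochondrial UMIs were kept; doublets were not removed. Counts were summed per group and compared as CPM ratios with exact conditional binomial 95% intervals. Phases were scored with scanpy 1.11.5. Cells were thinned once at random to 15000 UMIs for correlations and bins. Positions came from GENCODE release 29 (GRCh38) by gene identifier and promoter windows from RefSeq (GRCh38.p14). The calling code was tested on simulated counts.

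All 34 members could be named, the 12 genes most correlated with HSPA5 in each library, up to 4 genes per pathway list by ratio and level, GANAB and TMEM132D-AS1; 1 gene so chosen is not reported here. Genes of the other ER lists are named because they met the rule, a choice made after their values were seen. The members and lists were chosen with earlier results of these data known. Marked against other knockdown cells, bins by HSPA5, arms without single genes, neighbours within 10 Mb and cell subsets other than G1 were chosen after seeing the data. Further lists (cytosolic chaperones, cholesterol synthesis, ribosomal proteins, S phase, G2 and M phase) served as background.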

Additional observations from a re-analysis of the deposited data

How the results depend on the processing

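No paired analysis was possible because each group has 1 library. Of 88 counts of members under alternative settings 72 stayed within 1.5 times the value given. Many of these 72 were counts of higher members that stayed at 0. No member called lower changed the sign of its ratio under these settings, and only called members were checked for this. Uncalled members did change sign, such as NPLOC4 (-0.14 to 0.34) and CRELD2 (-0.12 to 0.18) between all marked cells and those in G1. The share of all measured genes called in the same direction is given beside each count. Between the libraries, 7 lower members became 3 in G1 cells (9.87%) and 0 at a ratio of 2 (2.35%). At a ratio 25% above 1, 17 were lower (26.1%) and 3 higher (17.6%). Other settings were chosen after seeing the data. In cells with fewer than 2 UMIs of TMEM132D-AS1, 4 were lower (MANF, P4HB, PDIA4 and VCP, 8.57%). In S or G2M cells SEC61B was the 1 higher (5.40%). Within marked cells, 3 lower became 1 with all genes centred on 0 (3.20%) and 0 at a ratio of 2 (0.946%). At a ratio 25% above 1, 8 were lower (19.5%) and 1 higher (9.95%). Under each of 6 others 2 were lower (3.69% to 6.34%), where MANF or UBE2J1 missed the ratio. These were G1 cells, without the cells of most UMIs, without cells with collagen UMIs, and marking at 1 UMI, at 3 UMIs or after thinning. In marked against other control cells, 1 lower became 2 in G1 cells (6.65%) and 2 with marking after thinning (5.54%). It became 0 at a ratio of 2 (1.07%) and 0 with marked cells taken at 1 UMI (3.44%). At a ratio 25% above 1, 11 were lower (13.5%) and 1 higher (14.8%). The median correlation of arms in control cells (0.256) was 0.329 in G1 cells, 0.288 with cells thinned to 25000 UMIs and 0.102 as Spearman's rho. In marked control cells it was 0.350, but pairs with the translocon could not be given there and were left out. Over all control cells those pairs lay between -0.14 and 0.17. The values 0.350 and 0.256 thus cover unlike pairs and cannot be compared. In knockdown cells the median (0.289) was 0.140 as Spearman's rho. Members under 10 CPM (ERN1, SYVN1, DERL3) are limited by depth.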

Other observations

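XBP1 differed inside the knockdown library between cells with many and few transcripts of interferon-induced IFIT genes. In the 288 knockdown cells with 20 or more UMIs of IFIT1, IFIT2 and IFIT3 together, XBP1 stood at 58.2 CPM, and in the other 2384 at 32.5, a log2 ratio of 0.84 (counting interval 0.73 to 0.95) that exceeded those of 97.96% of 7656 measured genes. XBP1 was the 1 member higher by the rule, beside 3.30% of those genes. As a share of the members this count lies near that of all genes. Median UMIs were 41340 and 40890 in the 2 sets. HSPA5 stood at 415 and 472 CPM and HERPUD1 at 75.4 and 85.99 in the same cells, and HSP90B1 at 459 and 460.1. The control library held 18 such cells, with XBP1 at 59.1 CPM against 46.5 in the others (log2 interval -0.17 to 0.82).

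Knockdown cells were also split by their GANAB counts. The 1495 knockdown cells with 0 GANAB UMIs after thinning had HSPA5 at 459 CPM, and the 1177 with 1 or more at 473. HERPUD1 stood at 85.4 and 84.1 CPM in these sets. HSP90B1 stood at 436 and 488, and PDIA4 at 82.3 and 95.2. Median UMIs were 39600 and 42785.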
